A study of Mus musculus with 8 samples.

Results

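The 35 genes described here serve fatty acid oxidation or are targets of PPARA in the mouse, and PPARA itself is one of them. They were taken by gene name from the array's design, whatever their values, and all 35 were found among the 21276 genes tested. All 35 were well above background on all 8 arrays. Each gene is represented by 1 probe, and its level is the log2 of the array signal relative to the array's 75th percentile, so that a level of 0 equals that percentile.

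Each sample is RNA of 1 mouse on 1 array, taken from its left kidney at 24 h, and 4 groups hold 2 mice each, 8 in all. Sham mice 1 and 4 had an abdominal midline incision and no clamping. IRI mice 30 and 34 lost the right kidney and had the left renal vessels clamped for 45 min, which models acute kidney injury by ischaemia and reperfusion (IRI). The IRI operation was also done in mimic mice 6 and 7 and in control-miRNA mice 1 and 5, here 2 days after a tail vein injection of 200 µl with 5 nmol of a small RNA, either a miR-5100 mimic or a control miRNA, complexed with polyethylenimine nanoparticles. The comparisons ask what the injury changed and what the mimic added to it. Strain, sex and age are not given in the sources used here. No group of uninjured mice received nanoparticles, and the sham operation is labelled as an incision only, so clamping and loss of the other kidney cannot be told apart. The design text gives the mimic's sequence, which equals that of mouse miR-5100 in RefSeq (GRCm38.p6, chr11:60728698-60728718, plus strand) and is shown because it is the treatment, with its seed (bases 2 to 8) in capitals.
mmu-miR-5100: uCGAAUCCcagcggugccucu

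Long-chain fatty acids are activated to CoA esters, carried into mitochondria by the carnitine shuttle and shortened in repeated rounds of dehydrogenation, hydration, a further oxidation and cleavage, with the electrons passed on by electron transfer flavoproteins. Peroxisomes shorten very long and branched chains and pass the products on as carnitine esters. The nuclear receptor PPARA, paired with RXR, senses fatty acids and switches on many of these enzymes, and the proximal tubule of the kidney relies on them for most of its energy.

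The arrays were not alike in brightness, and mimic mouse 7 stood apart. Its 75th percentile signal was 239, against 305 in mimic 6 and 401 to 589 in the other 6 arrays. Both mimic arrays were thus dimmer than all others, so brightness and the mimic cannot be fully told apart. The gap between the mimic mice had an SD of 0.67 (log2) over all genes and 0.90 over the 35, while the gaps in the other groups had SDs of 0.33 to 0.52 and 0.22 to 0.32. All arrays lay on 1 slide with 1 scan time. Sham and IRI arrays lay in slide row 1 and the injected groups in row 2, so row and injection cannot be told apart. Columns 1 and 2 of the slide held the sham and mimic mice, and columns 3 and 4 the remaining groups. So IRI or control-miRNA against sham, and mimic against either other injured group, also compare different columns. Scaling arrays by their median instead of the 75th percentile moved the median of all genes by 0.16 in IRI against sham, -0.27 in mimic against sham, -0.34 in mimic against control-miRNA and -0.44 in mimic against IRI. Such a scaling shifts all genes alike. Relative to the median of all genes, that of the 35 was -0.03, -0.85, -0.77 and -0.70 in these 4 comparisons.

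Cell type markers moved with the injury. Of 15 proximal tubule markers 0 were called higher and 11 lower in IRI against sham mice, beside 9.46% and 8.82% of all genes. Their summed level (as multiples of the 75th percentile) was 2640 to 2740 in sham, 1130 to 1160 in IRI, 1100 to 1360 in control-miRNA and 1360 to 1750 in mimic kidneys. The 2 brightest, Kap and Slc27a2, ranged from 8.87 to 9.80 and from 6.83 to 8.51 in log2 level. All 5 tubular injury markers rose in each injured group, with Lcn2, a secreted protein of damaged tubule, at -0.19 and -0.54 in sham mice and 5.87 to 7.78 in injured ones. In a bulk sample, fewer cells of a type and less RNA per cell cannot be told apart, and the part of the tubule markers in the results below was not tested.

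In IRI against sham kidneys 3 of the 35 genes rose and 6 fell. Fabp1 had the largest rise and Hao2 the largest fall. The shares, 8.57% and 17.1%, stood beside 9.46% of all genes called higher and 8.82% called lower (median scaling gave 4 and 5 of the 35, and 2472 and 1363 of all genes in place of 2013 and 1876). The median log2 difference of the 35 genes was -0.11, beside -0.08 for all genes. Calls rest on an adjusted p under 0.05 over all genes. With 2 mice a group, lack of overlap between groups is common. IRI and sham did not overlap for 71.4% of the 35 genes and 71.7% of all genes. For control-miRNA and sham the shares were 71.4% and 68.7%, and for mimic and sham 65.7% and 68.7%. The injured groups with nanoparticles share the sham mice with this comparison, and their values are given side by side. In control-miRNA against sham kidneys 3 genes rose and 7 fell, with 9.48% and 7.87% of all genes called higher and lower. In mimic against sham kidneys 2 rose and 9 fell, with 14.9% and 13.0% of all genes called (3176 higher and 2765 lower, or 1774 and 4227 with median scaling). Against sham, 8 genes were called in all 3 injured groups and 5 more in 1 or 2 of them. The 8 were Fabp1, Acot2, Hao2, Acadm, Acox2, Etfa, Acaa1a and Crot. No share of all genes called in all 3 groups was computed to set beside these counts. The same sham mice enter all 3 comparisons.

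**Figure D1:**
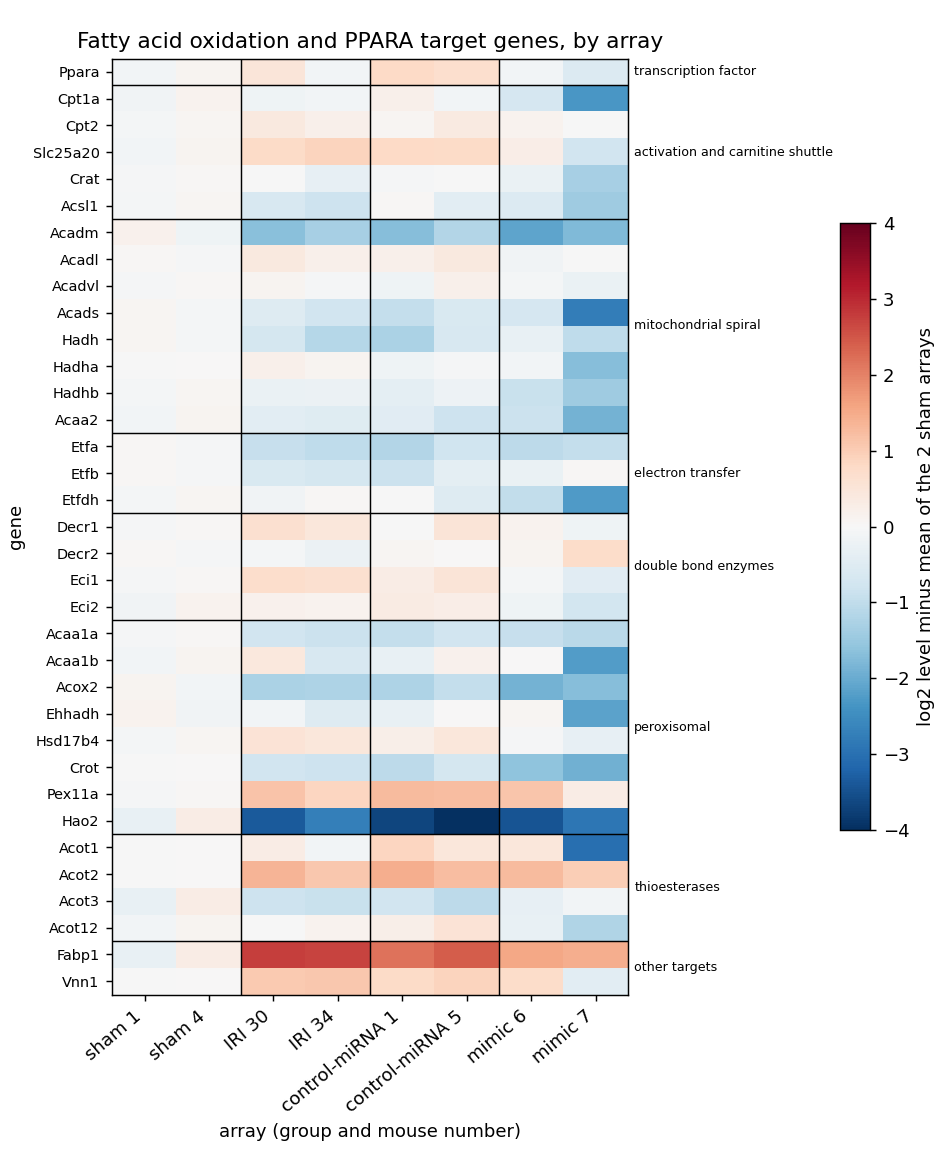
Log2 level of each of the 35 genes (rows, by role) on each of the 8 arrays (columns), minus the mean of the 2 sham arrays, with red above and blue below sham. Fabp1 is red and Hao2 blue in all 6 injured kidneys, and the column of mimic 7 holds the lowest of the 8 values for 22 of the 35 genes.

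Ppara, which encodes the receptor, read 3.79 and 3.99 in the sham mice, 4.38 and 3.79 in IRI, 4.68 and 4.56 in control-miRNA and 3.79 and 3.35 in mimic mice. The control-miRNA mice had the highest levels, mimic 7 the lowest, and sham and IRI mice overlapped. The log2 difference was 0.20 ± 0.25 (SE, n = 2 mice a group) in IRI against sham (adjusted p = 0.61) and 0.73 ± 0.25 in control-miRNA against sham (adjusted p = 0.0933). A second probe of Ppara differed in the same direction, by 0.18 in IRI against sham.

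Fabp1, the fatty acid binding protein best known from liver, read -2.30 and -1.69 in the sham mice, 0.76 and 0.70 in IRI, 0.17 and 0.43 in control-miRNA and -0.45 and -0.53 in mimic mice. The 4 groups did not overlap, with sham lowest, then mimic, then control-miRNA, then IRI. Fabp1 rose 6.62-fold in IRI against sham (log2 difference 2.73 ± 0.23, adjusted p = 0.00123), 4.9-fold in control-miRNA against sham (adjusted p = 0.00243) and 2.83-fold in mimic against sham (adjusted p = 0.00682). Vnn1, a pantetheinase and PPARA target, read 2.67 and 2.72 in sham and 3.74 and 3.77 in IRI mice, a log2 difference of 1.07 ± 0.35 that did not pass (adjusted p = 0.0808). Hepatocyte markers summed to 126 to 147 in sham, 36.7 to 51.6 in IRI, 45.3 to 94.2 in control-miRNA and 45.5 to 90.3 in mimic mice. The 2 brightest were Serpina1a (6.28 and 6.30 in sham, 4.13 and 5.04 in IRI mice) and G6pc (4.96 and 5.79, 3.01 and 2.94). Of the 9 measured 1 was called higher and 4 lower in IRI against sham, beside 9.46% and 8.82% of all genes. The part of liver cells in the Fabp1 levels was not tested.

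Hao2, a peroxisomal 2-hydroxy acid oxidase of the tubule, had the largest fall of the 35 genes in all 3 comparisons with sham. It read 4.19 and 4.78 in the sham mice, 1.14 and 1.76 in IRI, 0.81 and 0.43 in control-miRNA and 1.02 and 1.59 in mimic mice. The sham values lay far above all 6 injured ones. The fall was 8.2-fold in IRI (log2 difference -3.04 ± 0.33, adjusted p = 0.0026), 14.6-fold in control-miRNA (adjusted p = 0.00169) and 9.08-fold in mimic against sham mice (adjusted p = 0.00217). Fabp1 and Hao2 kept their calls in IRI against sham in all 19 other settings tried.

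Among the other peroxisomal genes 3 more fell after injury and 1 rose. Acox2, the oxidase for branched chains and bile acid precursors, read 4.64 and 4.42 in the sham mice, 3.27 and 3.29 in IRI, 3.29 and 3.58 in control-miRNA and 2.63 and 2.84 in mimic mice. Acaa1a, a peroxisomal thiolase, read 6.42 and 6.52 in the sham mice, 5.69 and 5.61 in IRI, 5.52 and 5.70 in control-miRNA and 5.56 and 5.38 in mimic mice. Sham was highest for both genes, without overlap. The log2 differences in IRI against sham were -1.25 ± 0.18 for Acox2 (adjusted p = 0.00696) and -0.82 ± 0.16 for Acaa1a (adjusted p = 0.0185). A second Acaa1a probe gave -0.17, and with both averaged the difference was -0.49 (adjusted p = 0.153).

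Crot moves medium chains out of the peroxisome as carnitine esters. Its main probe read 4.04 and 4.05 in the sham mice, 3.27 and 3.22 in IRI, 3.01 and 3.34 in control-miRNA and 2.45 and 2.11 in mimic mice. The levels thus formed 3 tiers, with IRI and control-miRNA mice overlapping in the middle. Crot fell by 0.80 ± 0.19 on the log2 scale in IRI (adjusted p = 0.0335), by 0.87 in control-miRNA (adjusted p = 0.0271) and by 1.76 in mimic against sham mice (adjusted p = 0.00249).

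Pex11a, which drives peroxisome elongation and division, read 4.53 and 4.61 in the sham mice, 5.72 and 5.44 in IRI, 5.82 and 5.80 in control-miRNA and 5.69 and 4.88 in mimic mice. All injured kidneys lay above sham, with mimic 7 nearest to it. Pex11a rose by 1.01 ± 0.27 in IRI (2.01-fold, adjusted p = 0.046) and by 1.24 in control-miRNA against sham (adjusted p = 0.0262), while in mimic against sham the value was 0.71 (adjusted p = 0.091). The IRI call is close to the threshold and was lost without any single sham, IRI or control-miRNA array (adjusted p 0.0707 to 0.206).

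Acadm, the medium-chain acyl-CoA dehydrogenase of mitochondria, was the only one of the 8 genes of the mitochondrial spiral that passed in IRI against sham. It read 7.16 and 6.84 in the sham mice, 5.33 and 5.68 in IRI, 5.29 and 5.84 in control-miRNA and 4.90 and 5.22 in mimic mice. Sham levels were above all others, IRI and control-miRNA mice overlapped, and both mimic values lay just below them. The fall was 2.82-fold in IRI (log2 difference -1.49 ± 0.26, adjusted p = 0.0116), 2.71-fold in control-miRNA (adjusted p = 0.0146) and 3.83-fold in mimic against sham mice (adjusted p = 0.00437). The dehydrogenases for longer chains gave small differences, 0.30 ± 0.16 for Acadl (95% interval -0.09 to 0.69) and 0.04 ± 0.19 for Acadvl (-0.41 to 0.49). Hadh gave -0.91 ± 0.32 (adjusted p = 0.0938), Acads -0.64 ± 0.60 (adjusted p = 0.486) and Acaa2 -0.45 ± 0.34 (adjusted p = 0.385). Of the 8 differences in IRI against sham 5 were negative and 3 positive.

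Etfa encodes the alpha subunit of the electron transfer flavoprotein, and Etfb its beta subunit. Etfa read 6.38 and 6.30 in the sham mice, 5.41 and 5.33 in IRI, 5.16 and 5.55 in control-miRNA and 5.28 and 5.38 in mimic mice. The injured groups overlapped one another and lay below sham. Etfa fell by 0.97 ± 0.18 in IRI (adjusted p = 0.0153), by 0.99 in control-miRNA (adjusted p = 0.0159) and by 1.01 in mimic against sham mice (adjusted p = 0.0104). For Etfb the difference in IRI against sham was -0.65 ± 0.21 (adjusted p = 0.0781).

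The acyl-CoA thioesterases, which release fatty acids from CoA, went different ways. Acot2, the mitochondrial member, read 1.32 and 1.38 in the sham mice, 2.72 and 2.42 in IRI, 2.80 and 2.59 in control-miRNA and 2.61 and 2.34 in mimic mice. All 6 injured kidneys lay above sham and the injured groups overlapped. Acot2 rose 2.32-fold in IRI (log2 difference 1.22 ± 0.19, adjusted p = 0.0087), 2.54-fold in control-miRNA (adjusted p = 0.00657) and 2.18-fold in mimic against sham mice (adjusted p = 0.00868). Acot3, a peroxisomal member, read 0.88 and 1.50 in the sham mice, 0.36 and 0.30 in IRI, 0.42 and 0.13 in control-miRNA and 0.86 and 1.07 in mimic mice. Acot3 was lower in IRI and control-miRNA mice without overlap, and the mimic mice overlapped sham. It fell by 0.92 ± 0.24 in control-miRNA against sham (adjusted p = 0.0444), and the difference was -0.86 in IRI against sham (adjusted p = 0.0521). Acot1 to Acot3 are close relatives on chromosome 12, as are Acaa1a and Acaa1b on chromosome 9, and whether their probes tell the copies apart was not tested.

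**Figure D2:**
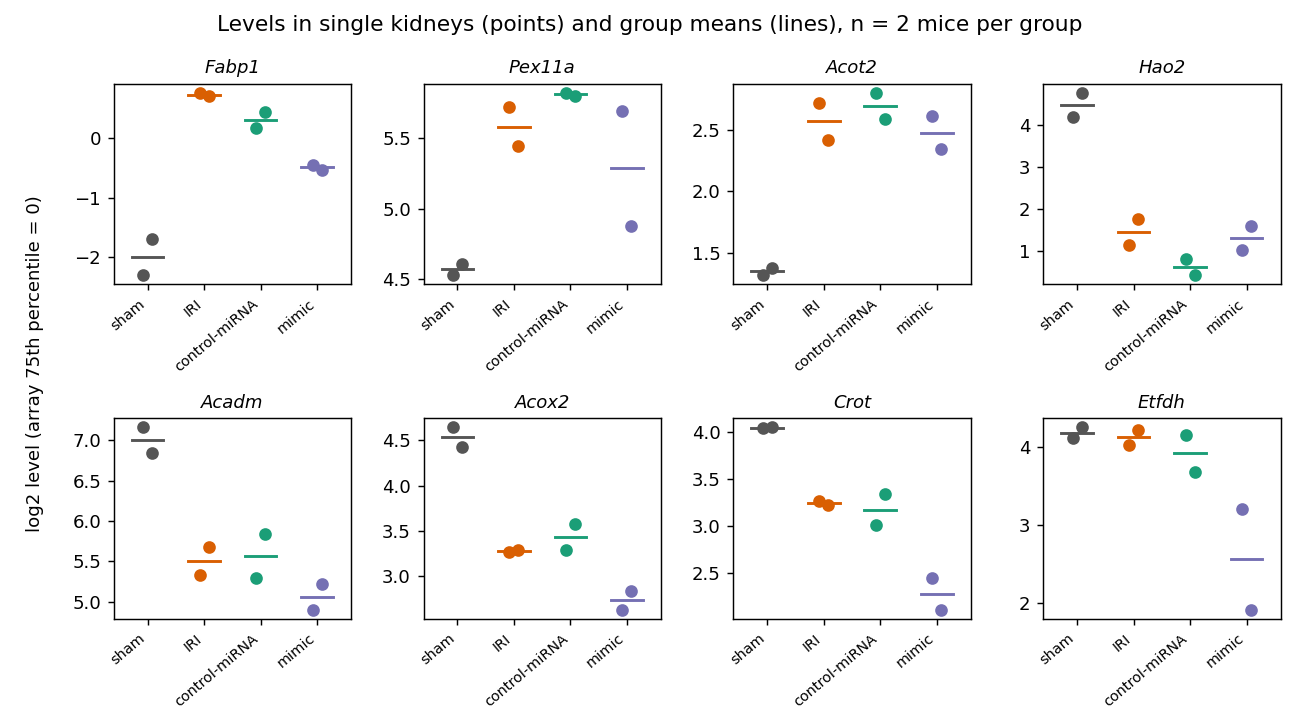
Log2 level (array 75th percentile = 0) of 8 genes in each kidney, as points, with the group mean as a line (n = 2 mice a group, each panel with its own axis). Fabp1, Pex11a and Acot2 lie higher in IRI than in sham mice, Hao2, Acadm, Acox2 and Crot lower, and Etfdh reads 3.21 in mimic 6 and 1.92 in mimic 7, below all other mice.

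How many of these injury calls passed depended on single arrays and covariates. In IRI against sham 2 genes were called without sham 1 or without IRI 30, 3 without sham 4, 4 without IRI 34 and 15 without either mimic mouse, with medians of -0.12 to 0.00. The share of all genes called, in either direction, moved with them, at 3.75%, 4.05%, 4.04%, 5.05% and 27.9% in place of 18.3%. With array brightness as a covariate 4 genes were called and their median was -0.36, and with slide column 2 and 0.32 (8.79% and 3.83% of all genes, with medians of -0.02 and -0.07). In control-miRNA against sham fewer of the 35 were called without either sham mouse or without control-miRNA 1. More were called without either mimic mouse, and the share of all genes moved with them. The medians were -0.09 without sham 1, -0.00 without sham 4 and 0.01 without control-miRNA 1. With slide column as a covariate 1 gene was called, beside 3.22% of all genes. In mimic against sham fewer were called without either sham mouse and more without mimic 6, and the share of all genes moved likewise. The median was -0.85 without sham 1, -0.72 without sham 4 and -1.01 without mimic 6, in place of -0.75. With array brightness as a covariate 0 were called, beside 0.588% of all genes.

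The mimic mice had lower levels of most of the 35 genes than the other injured mice. In mimic against IRI kidneys 31 of 35 log2 differences were negative (88.6%, against 44.6% of all genes), with a median of -0.60 beside 0.09 for all genes. Of the 35 genes 0 were called higher and 6 lower (17.1%), beside 9.87% of all genes called higher and 5.59% lower. The 6 were Fabp1, Crot, Eci1, Hadhb, Etfdh and Hsd17b4, with adjusted p from 0.039 to 0.0486. Mimic and IRI mice did not overlap for 68.6% of the 35 genes and 67.3% of all genes, so lack of overlap does not set the 35 apart. In mimic against control-miRNA kidneys, in which operation and nanoparticles were the same, limma called 0 of the 35 genes and 0% of all genes. At an unadjusted p under 0.05, 2 were higher and 14 lower (5.71% and 40%), beside 19.3% and 14.4% of all genes. There 30 of 35 differences were negative, the median was -0.70 beside 0.07 for all genes, and the smallest adjusted p was 0.067, for Crot. Both comparisons share the mimic mice, so their values are given side by side and neither backs the other.

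The calls in mimic against IRI depend on the arrays and the model. They fell to 0 without mimic 7, without any single sham, IRI or control-miRNA array, with array brightness or slide column as a covariate, and with only these 2 groups in the fit, and rose to 20 without mimic 6 (1 higher and 19 lower, with 35.3% of all genes called in place of 15.5%). Without mimic 7 the median of the 35 genes was -0.30 (25 of 35 negative) against IRI and -0.19 (27 of 35 negative) against control-miRNA mice, and without mimic 6 it was -0.84 and -0.93, with 1 gene called higher and 20 lower against control-miRNA (29.7% of all genes). With array brightness as a covariate the median against IRI was -0.00. With median scaling 20 of the 35 genes were called lower, and 1076 of all genes were called higher and 5642 lower, in place of 2099 and 1189 (1185 and 1102 with quantile normalization, which called 3 of the 35).

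**Figure D3:**
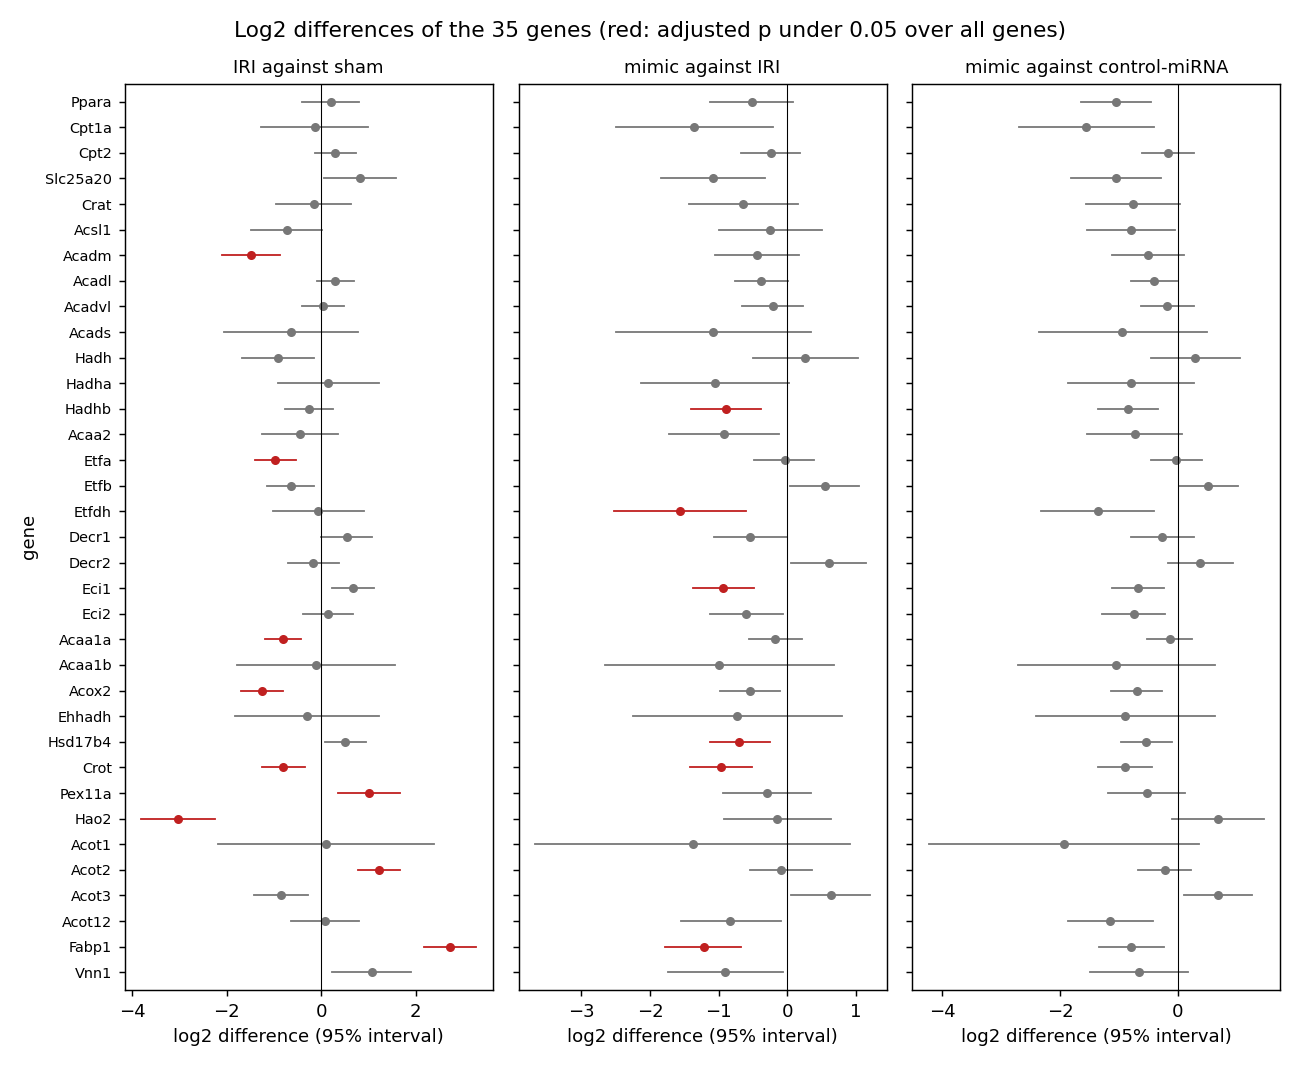
Log2 difference (points) with its 95% interval (lines, limma) for each of the 35 genes in 3 comparisons, with genes at an adjusted p under 0.05 over all genes in red. In IRI against sham 3 red points lie right of 0 and 6 left, in mimic against IRI 6 lie left of 0, and in mimic against control-miRNA there are 0.

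Fabp1, given above by mouse, lay lower in both mimic mice than in any other injured mouse. Against IRI it fell 2.34-fold (log2 difference -1.22 ± 0.23, adjusted p = 0.039), and against control-miRNA the difference was -0.79 ± 0.23 (adjusted p = 0.0783). Against sham it was still higher, as above. Without mimic 7 the difference from IRI was -1.18 (adjusted p = 0.109).

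Eci1, a mitochondrial enoyl-CoA isomerase for unsaturated chains, read 4.40 and 4.50 in the sham mice, 5.14 and 5.10 in IRI, 4.75 and 4.97 in control-miRNA and 4.38 and 4.00 in mimic mice. Both mimic values lay below all others. Eci1 fell by 0.94 ± 0.19 in mimic against IRI (adjusted p = 0.039), and without mimic 7 the value was -0.75 (adjusted p = 0.108). Against control-miRNA the difference was -0.67 (adjusted p = 0.0735). Its sister gene Eci2, with an overlapping task in peroxisomes, gave -0.60 ± 0.22 against IRI (adjusted p = 0.0946).

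Hsd17b4, the multifunctional enzyme of peroxisomal oxidation, read 5.18 and 5.36 in the sham mice, 5.82 and 5.72 in IRI, 5.49 and 5.73 in control-miRNA and 5.21 and 4.93 in mimic mice. The mimic mice overlapped sham and lay below the other injured groups. The fall in mimic against IRI was 0.70 ± 0.18 (1.62-fold, adjusted p = 0.0486), and against control-miRNA the difference was -0.54 (adjusted p = 0.0991).

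Etfdh passes electrons from the electron transfer flavoprotein to ubiquinone. Its main probe read 4.12 and 4.25 in the sham mice, 4.03 and 4.22 in IRI, 4.16 and 3.68 in control-miRNA and 3.21 and 1.92 in mimic mice. The mimic mice lay below the rest but 1.29 apart from each other. Etfdh fell 2.96-fold in mimic against IRI (log2 difference -1.57 ± 0.40, adjusted p = 0.0475) and 3.08-fold in mimic against sham mice (adjusted p = 0.0282). Without mimic 7 the difference from IRI was -0.92 (adjusted p = 0.112), and with array brightness as a covariate it was 0.18 (adjusted p = 1).

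Hadhb is the beta subunit of the mitochondrial trifunctional protein. Its main probe read 4.85 and 4.99 in the sham mice, 4.64 and 4.69 in IRI, 4.52 and 4.71 in control-miRNA and 4.03 and 3.50 in mimic mice. The mimic mice lay below the rest without overlap. Hadhb fell by 0.90 ± 0.21 in mimic against IRI (adjusted p = 0.0429) and by 1.16 in mimic against sham (adjusted p = 0.0114). Hadha, the alpha subunit of the same protein, differed by -1.06 ± 0.45 from IRI (adjusted p = 0.13), reading 1.05 in mimic 6 and -0.53 in mimic 7. Acaa2, the mitochondrial thiolase that ends each round, read 6.31 and 6.52 in the sham mice, 6.00 and 5.93 in IRI, 5.97 and 5.59 in control-miRNA and 5.56 and 4.52 in mimic mice. The mimic mice were lowest. Acaa2 fell 2.59-fold in mimic against sham (adjusted p = 0.0272), and the difference from IRI was -0.92 ± 0.34 (adjusted p = 0.0922).

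For Crot, both mimic mice lay below all other mice on the main probe. It fell 1.95-fold in mimic against IRI (log2 difference -0.97 ± 0.19, adjusted p = 0.039), and the difference from control-miRNA was -0.89 ± 0.19 (adjusted p = 0.067). Without mimic 7 the difference from IRI was -0.79 (adjusted p = 0.108).

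Other probes of Crot, Hadhb and Etfdh did not follow the main ones. The first 30 of each probe's 60 bases are shown because the fall in the mimic mice depends on which probe is read, with the transcript each was designed on. The coordinates come from the array files (mm9), and exon, intron and UTR status was not analysed here.
Crot main probe A_51_P489153 (NM_023733, chr5:8966430-8966489, minus strand): actttctaattgccagagggataaagcaca
Crot second probe A_55_P2720336 (ENSMUST00000157024, chr5:8986251-8986310, minus strand): cagctgctgacagttacttaataaaagctc
Hadhb main probe A_55_P2073294 (NM_001289798, chr5:30510925-30510984, plus strand): gaatcgtctttgtaacatttgcagatactc
Hadhb second probe A_55_P2720625 (ENSMUST00000127364, chr5:30494754-30494813, plus strand): tgtacacgttgtcccttgacttccccaagt
Hadhb further probe A_66_P130187 (NM_001289798, chr5:30503442-30503500, plus strand): accaaagataatgggatccgtccttcctca
Etfdh main probe A_55_P1973723 (NM_025794, chr3:79407806-79407865, minus strand): gtatgccaaactaacttcctgtatgtttag
Etfdh second probe A_55_P2715600 (ENSMUST00000149511, chr3:79423588-79423647, minus strand): cgacatacggaagactcaatgttaggtctc

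The second Crot probe read -1.94 and -2.26 in the sham mice, -2.13 and -2.54 in IRI, -2.41 and -1.91 in control-miRNA and -1.70 and -0.96 in mimic mice. It was highest in the mimic mice, where the main probe was lowest. Its log2 difference in mimic against IRI was 1.01, in place of -0.97, and in IRI against sham it was -0.24, in place of -0.80. The second Hadhb probe read -2.31 and -2.82 in IRI and -2.25 and -0.99 in mimic mice, a difference of 0.94 in place of -0.90. The further Hadhb probe, designed on the same RefSeq transcript as the main one, read 1.03 and 1.08 in IRI and 1.03 in both mimic mice, a difference of -0.03. For Etfdh the second probe read -1.45 and -1.91 in IRI and -1.21 and -1.35 in mimic mice, a difference of 0.40 in place of -1.57. With all probes of a gene averaged, the difference in mimic against IRI was 0.02 for Crot (adjusted p = 0.95). It was 0.00 for Hadhb (adjusted p = 0.987) and -0.58 for Etfdh (adjusted p = 0.14). Of the 35 genes so averaged 0 were called higher and 5 lower there, namely Acox2, Cpt2, Eci1, Fabp1 and Hsd17b4. The median of the 35 was -0.62, and 14.2% of all genes were called in either direction. Against sham the averaged differences were -0.52 (IRI), -0.46 (control-miRNA) and -0.50 (mimic) for Crot, and -0.24 for Hadhb and -0.42 for Etfdh in mimic mice, and 0 of these were called (adjusted p 0.108 to 0.339). The fall of these 3 genes in mimic mice is thus read from 1 probe each. The probes of these 3 genes on ENSMUST transcripts were dimmer than the main ones but well above background on all 8 arrays. With genes added whose probes did not pass the background filter, the median of all genes in mimic against IRI was 0.49 in place of 0.09. There 10238 genes were called higher and 1653 lower. The ENSMUST probes of these 3 genes passed that filter, so those values do not describe them. The second probes of Cpt2 (-2.09) and Acox2 (-1.99) were lower in mimic than in IRI mice. They were well above background on 7 and 6 of the 8 arrays, so they are not like the ENSMUST probes in this respect. The part of dimness in the differences of the second probes was not tested.

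**Figure D4:**
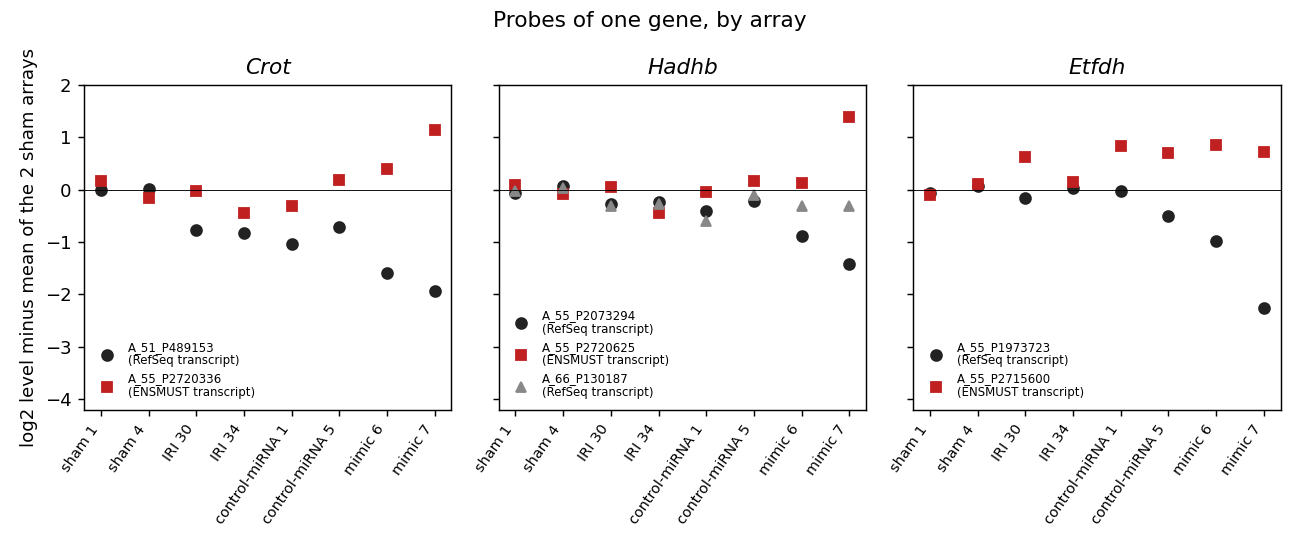
Log2 level of each probe of Crot, Hadhb and Etfdh on the 8 arrays, minus that probe's own mean over the 2 sham arrays. Black circles mark the main probe, red squares the probe designed on an ENSMUST transcript, and grey triangles the further Hadhb probe. In mimic 7 the main probes lie lowest and the red squares of Crot and Hadhb highest.

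Of the 35 genes 13 had several probes. In IRI against sham the probes of a gene that passed the background filter had the same sign for 11 of the 13, the exceptions being Eci2 and Etfdh. In mimic against IRI they did for 8 of 13, the exceptions being Crot, Eci2, Etfb, Etfdh and Hadhb. A probe of Acsl1 that did not pass the filter differed in sign too, which makes it 10 and 7 of 13 with all probes. Both Ppara probes were lower in mimic than in control-miRNA mice. On its main probe Ppara gave -1.05 ± 0.25 there (2.07-fold lower, unadjusted p = 0.00455, adjusted p = 0.0677) and -0.52 ± 0.25 against IRI (adjusted p = 0.172), where mimic 6 and IRI 34 both read 3.79.

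The 2 mimic mice differed from each other more than the mice of any other group did for these genes. Mimic 7 had the lowest of the 8 values for 22 of the 35 genes (62.9%), against 20.5% of all genes, and mimic 6 for 3. The difference of mimic 7 from mimic 6 had a median of -0.43 over the 35 genes and 0.05 over all genes. It exceeded 1 on the log2 scale, in either direction, for 11 of the 35 genes and for 11.5% of all genes. The widest gap was in Acot1, a cytosolic thioesterase, with 4.75 in mimic 6 and 1.28 in mimic 7, while the other 6 mice lay between 4.19 and 5.16. Ehhadh, the peroxisomal bifunctional enzyme, read 4.84 and 2.62, and Acaa1b, a peroxisomal thiolase, 4.45 and 2.20. Acads, the short-chain dehydrogenase, read 3.68 and 1.57, and Cpt1a, the entry step of the carnitine shuttle, 4.00 and 2.35. For each of these, mimic 7 was below every other mouse. Mimic 7 also had the dimmest array, and the part of brightness in this gap was not tested. The covariate above cannot fully separate brightness from the mimic, as both mimic arrays were dimmer than all others.

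Of the 35 genes 20 were called in 0 of the 6 comparisons, Ppara among them. The other 19 ranged in level from -1.52 (Slc25a20 in mimic 7) to 7.84 (Etfb in sham 1 and mimic 7). For the 20, the log2 differences in IRI against sham ran from -0.91 (Hadh, a 3-hydroxyacyl-CoA dehydrogenase) to 1.07 (Vnn1), with 9 negative and a smallest adjusted p of 0.0781. In mimic against IRI they ran from -1.38 (Acot1) to 0.60 (Decr2, a peroxisomal dienoyl-CoA reductase), with 17 of 20 negative and a smallest adjusted p of 0.0591, for Slc25a20, the carnitine-acylcarnitine carrier. In mimic against control-miRNA they ran from -1.93 (Acot1) to 0.52 (Etfb), with 17 negative.

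Of the 5 genes of activation and the carnitine shuttle 0 were called in any comparison. Slc25a20 read -0.86 and -0.63 in the sham mice, 0.02 and 0.13 in IRI and -0.49 and -1.52 in mimic mice, and its levels in mimic mice lay below both IRI values. All 5 differences were negative in mimic against IRI. Cpt2, the inner membrane transferase, lay within 5.40 to 5.88 on all 8 arrays on its main probe. Its second, dim probe read -1.77 and -1.16 in IRI and -3.08 and -4.02 in mimic mice, a difference of -2.09 in place of -0.24, and with both probes averaged Cpt2 was called lower in mimic against IRI and against sham. Acsl1, which activates long chains, differed by -0.73 ± 0.31 in IRI against sham (adjusted p = 0.153), and Crat, the acetyltransferase, by -0.16 ± 0.33. Among the enzymes for double bonds Decr1, the mitochondrial dienoyl-CoA reductase, differed by 0.54 ± 0.23 (adjusted p = 0.147) and Decr2 by -0.17 ± 0.23. Acot12, which splits acetyl-CoA, differed by 0.08 ± 0.31 in IRI against sham and by -1.15 ± 0.31 in mimic against control-miRNA (adjusted p = 0.071).

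Control-miRNA and IRI mice differ by the injection of control miRNA and nanoparticles. Of the 35 genes 0 were called against IRI alone by limma (0% of all genes), and at an unadjusted p under 0.05 the counts were 0 higher and 1 lower, beside 2.89% and 1.17% of all genes. The 1 gene was Hao2 (log2 difference -0.83 ± 0.33, 95% interval -1.61 to -0.05). The median of the 35 genes was -0.03, beside 0.01 for all genes.

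Other genes of the same pathways were looked at through 4 lists, whose rising or falling genes are named in full where there are 5 or fewer. Their counts stand beside the shares of all genes called. These were 9.46% higher and 8.82% lower in IRI against sham, and 9.87% higher and 5.59% lower in mimic against IRI. Of 37 measured genes of other beta-oxidation steps and linked acyl-CoA pathways 2 rose and 12 fell in IRI against sham, with a median of -0.68. In the list 2 more, Acsl6 and Abcd2, did not pass the background filter. Its median is not one of beta-oxidation alone, as Ivd and Pccb, named below, are in it. The risers were 2 acyl-CoA synthetases, Acsl4 (2.31 ± 0.47, adjusted p = 0.0201) and Acsl5 (1.09 ± 0.22, adjusted p = 0.0194), while Acsl1, their sister among the 35 genes, was not called. The falls with the smallest p were those of Amacr, the racemase for branched chains (-2.13 ± 0.20, adjusted p = 0.00166), Acox3 (-1.61) and Ivd, a leucine pathway dehydrogenase (-1.60). Cpt1b, the muscle form of the shuttle enzyme, fell by 1.23. Between mimic and IRI mice 0 of the 37 rose and 4 fell, namely Echs1, the short-chain hydratase (-1.34), Phyh, for branched chains (-0.83), Acad11 (-1.33) and Pccb, a propionyl-CoA carboxylase subunit (-2.05).

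Of 24 other PPARA targets and uptake genes 7 rose and 5 fell in IRI against sham. Pdk4, a kinase that holds back glucose oxidation, read -0.92 and 0.04 in the sham mice, 3.70 and 3.59 in IRI, 3.58 and 4.02 in control-miRNA and 2.68 and 1.19 in mimic mice. All injured mice lay above sham, with mimic 7 the nearest. Pdk4 rose by 4.09 ± 0.52 in IRI (adjusted p = 0.0043), and the difference in mimic against IRI was -1.71 (adjusted p = 0.0611). Cidec, a lipid droplet protein, rose by 4.49 and Angptl4, an inhibitor of lipoprotein lipase, by 2.23 in IRI against sham. Lpl, the lipase itself, fell by 2.48, Slc27a2, an uptake and activation enzyme, by 1.58, Fads2, a desaturase, by 1.12, Fabp3, the heart-type binding protein, by 1.11, and Acot13, a thioesterase, by 0.82. Fgf21, a fasting hormone, was not well above background in either sham mouse or either mimic mouse. It was at least 4.75-fold higher in IRI than in sham (adjusted p = 0.00959) and at least 3.09-fold lower in mimic than in IRI mice (adjusted p = 0.0463). The bound sets each dim array at the higher of its own value and its lowest signal well above background. The omega-hydroxylases Cyp4a10 and Cyp4a14 gave 0.50 ± 0.74 and 1.02 ± 0.82, in IRI against sham.

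Cd36, a fatty acid transporter, fell in the mimic mice. It read 2.75 and 2.35 in the sham mice, 2.73 and 2.75 in IRI, 2.13 and 2.59 in control-miRNA and 1.10 and 0.78 in mimic mice. Both mimic mice lay below every other mouse. Cd36 fell by 1.80 ± 0.23 against IRI (adjusted p = 0.039) and by 1.61 against sham (adjusted p = 0.00577), and the difference from control-miRNA was -1.42 (adjusted p = 0.067). In this list 2 genes rose and 2, Cd36 and Fgf21, fell in mimic against IRI. The risers were Slc27a4, a fatty acid transporter (0.62 ± 0.16, adjusted p = 0.0492), and Fabp4, the fat cell binding protein (0.89 ± 0.22, adjusted p = 0.0461).

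Of 19 PPAR regulators 0 rose and 2 fell in IRI against sham, beside 9.46% of all genes called higher and 8.82% lower. The 2 were Sirt3, a mitochondrial deacetylase (-1.33 ± 0.34, adjusted p = 0.041), and Lpin1 (-1.02). Ppargc1a, the coactivator of mitochondrial genes, gave -1.40 ± 0.39 (adjusted p = 0.0515), reading 3.39 and 3.44 in sham, 2.10 and 1.93 in IRI and 2.01 and 3.32 in mimic mice. The RXR partner Rxra gave -0.52 ± 0.16 (adjusted p = 0.064) and fell in control-miRNA (-0.58, adjusted p = 0.049) and mimic (-0.73, adjusted p = 0.0182) against sham mice. Between mimic and IRI mice 0 of 19 rose and 1 fell, beside 9.87% and 5.59% of all genes. The 1 was Lpin1, a phosphatidate phosphatase and coactivator (-1.08 ± 0.20, adjusted p = 0.039). Of 15 fatty acid synthesis genes 0 rose and 2 fell after injury, Scd1 (-2.50) and Scd2 (-0.87), both desaturases. Mimic mice had 1 of them higher than IRI mice, Acacb, whose product holds back the carnitine shuttle (1.26 ± 0.24, adjusted p = 0.039), and 1 lower, Dgat2, a triglyceride synthase (-0.79). All calls in mimic against IRI, of these lists too, share the limits given above, since over all genes 0 were called without mimic 7.

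Markers of other cell types were summed in the same way. The shares of all genes called, to set beside their counts, are as given with the lists above. Against IRI mice, 0 of 15 proximal tubule markers were called in mimic mice. Tubular injury markers summed to 244 to 274 in IRI, 235 to 330 in control-miRNA and 90.2 to 254 in mimic mice. In mimic against control-miRNA 4 of these 5 were negative (median -0.95) and 0 were called, with Krt20 at 5.75 in mimic 6 and 4.42 in mimic 7, against 6.41 and 6.10 in control-miRNA mice. Of the 9 hepatocyte markers measured 0 rose and 1 fell in mimic against IRI. The 4 adipocyte markers measured, Fabp4 brightest, summed to 5.35 to 6.31 in sham, 6.75 to 7.88 in IRI, 9.19 to 10.7 in control-miRNA and 10.8 to 11.6 in mimic mice, while Adipoq, Plin1, Cfd and Retn did not pass the background filter. Of these 4 markers 2 rose in mimic against IRI, and Fabp4 also stands in the list above. Neutrophil markers summed to 45.8 to 51.2 in sham, 45.4 to 51.3 in IRI and 74.5 to 99.1 in mimic mice, most of it Csf3r. Yet 3 of these 5 markers rose in IRI against sham, with a list median of 2.81, as S100a9 read -0.78 and -1.01 in sham and 1.71 and 2.43 in IRI mice, and in mimic against IRI 1 rose and the list median was 0.01. Macrophage markers summed to 12.6 to 16.3 in sham, 7.87 to 8.19 in IRI, 8.76 to 9.45 in control-miRNA and 13.2 to 13.4 in mimic mice. Of these 4 markers 1 rose and 2 fell in IRI against sham, with a list median of -0.80. Csf1r, the brightest, read 3.86 and 3.49 in sham and 2.03 and 1.92 in IRI mice. Cd68 went the other way, with -0.65 and -1.13 in sham and 1.70 and 1.91 in IRI mice. Over all mice the 4 skeletal muscle markers measured summed to 0.299 to 0.657 and the 2 adrenal cortex markers measured to 0.0903 to 0.434. The part of these cells in the mimic results was not tested.

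The PPARA and RXR element was looked for in the 250 bases before each start site in RefSeq's promoter table (GRCm38.p6), which lists 30 of the 35 genes. The search took 2 copies of AGGTCA spaced by 1 base on either strand, with up to 2 mismatches. It matched 3 of the 30 genes (10%), beside 3.72% of the 27025 genes in the table. With 0 mismatches it matched 0 of the 30, beside 0.0407% of all genes, and 1 copy of AGGTCA alone matched 16.7%, beside 15.8%. The 3 genes were Fabp1, which rose after injury, Etfa, which fell, and Acot12, which was not called. Each is shown with 60 bases around the match, in capitals, which reads as the reverse complement.
Fabp1 (chr6:71199788-71199847, plus strand): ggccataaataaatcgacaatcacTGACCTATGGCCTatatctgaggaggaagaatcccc
Etfa (chr9:55512285-55512344, minus strand): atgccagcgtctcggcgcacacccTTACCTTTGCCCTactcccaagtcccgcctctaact
Acot12 (chr13:91741387-91741446, plus strand): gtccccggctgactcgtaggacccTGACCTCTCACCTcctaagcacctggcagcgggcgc
The match ends 54 bases before the start site in Fabp1, 64 in Etfa and 97 in Acot12, with 1 mismatch in Fabp1 and Acot12 and 2 in Etfa. No binding was measured, and a match of letters is a description of these windows.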

How the data were processed

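Total RNA from 30 mg of each kidney was labelled with Cy3 from 50 ng and read in 1 colour on Agilent arrays. Per the file headers and the submitters' processing notes (Agilent Feature Extraction 12.0.3.1), the deposited processed signal of each spot is an intensity, background-subtracted and detrended but not scaled between arrays. The deposited series table gives a linear ratio, from its values each probe over its median across the 8 arrays (column medians 0.992 to 1.02, correlation with the scanner values 0.959 to 0.997). How it was scaled between arrays is unknown here, and it served only as an alternative.

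Control spots and outlier-flagged spots (79 to 127 an array) did not enter, and saturation flags were 0. Each spot's log2 signal was set relative to its array's 75th percentile and spots of 1 probe were averaged. A probe was kept if both arrays of some group called it well above background (32218 of 56605), and the probe with the highest mean stood for its gene, named as in the files. Of 52 probes of the 35 genes 51 were kept, and 47 were matched to RefSeq by accession, all to the same symbol. Differences were tested with lmFit and eBayes of limma 3.58.1 (R 4.3.3), fitted to the 8 arrays with 4 group means (6.84 moderated degrees of freedom), 6 comparisons, and Benjamini-Hochberg adjustment over 21276 genes at 0.05. Errors are moderated SEs, and intervals are 95%. The labels number the mice separately, and p-values measure the spread between these samples only. The number of arrays limits the precision. The model was tested on simulated data.

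Values by mouse are printed for Ppara, Crot, Hadhb and each of the 35 genes called in any comparison. Of the other lists, 12 fixed genes, the 3 called genes with the smallest p per list and comparison, and all called genes of a direction with 5 or fewer (the last chosen after values were seen) could be named, and of marker lists the 2 brightest. The 35 genes, the lists and these rules were chosen with earlier results of these data known. All 8 columns of the series table name a sample, and 0 were left unused.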

Additional observations from a re-analysis of the deposited data

How the results depend on the processing

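Over the 36 calls of single genes in 19 other settings, 492 of 684 values kept their call, 189 lost it in the same direction and 3 reversed, and 3 calls held in all 19 settings (Fabp1 and Hao2 in IRI against sham, Hao2 in control-miRNA against sham). The 3 reversals, all in mimic against IRI, were Crot (0.02) and Hadhb (0.00) with all probes averaged, and Etfdh (0.18) with array brightness as a covariate. Under normexp background correction the number of the 35 genes called was 14 in IRI against sham, 13 in mimic against control-miRNA and 17 in mimic against IRI, in place of 9, 0 and 6, while 21.1%, 27.6% and 48.6% of all genes were called. With brightness as a covariate it was 4 in IRI against sham and 0 in mimic against sham (11 in the fit as reported) and against IRI. With slide column as a covariate it was 2 in IRI against sham, 1 in control-miRNA against sham (10 as reported) and 0 in mimic against IRI. Fitted on the 2 groups compared it was 17 in IRI against sham and 0 in mimic against IRI. In mimic against IRI it was 20 with median scaling and 3 with quantile normalization or the deposited series table, and in mimic against control-miRNA 2 with probes well above background on all arrays. Leaving out 1 array at a time gave 2 to 15 calls in IRI and in control-miRNA against sham, 5 to 23 in mimic against sham (5 without either sham mouse, 23 without mimic 6), 0 to 21 in mimic against control-miRNA and 0 to 20 in mimic against IRI. In control-miRNA against IRI 0 were called in any setting. The median of the 35 genes in mimic against IRI moved from -0.60 to -0.00 with brightness as a covariate. The promoter element with 0 mismatches gave 0 genes in place of 3. The cause of these changes was not tested. No paired analysis was possible because no 2 groups share 2 mouse numbers. All 35 genes were well above background on all arrays, yet values moved under normexp, which also added an offset of 50 to each signal. Fabp1 in IRI against sham gave 2.11 there in place of 2.73. The parts of the offset and of the background estimate were not tested.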
